A study of Mus musculus with 9 samples.

Results

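Small leucine-rich proteoglycans are a family of secreted matrix proteins, and 9 of their genes (Dcn, Bgn, Lum, Fmod, Ogn, Aspn, Prelp, Omd and Podn) were followed here across tumors by their symbols among the 22609 genes listed. The RNA came from tumors that 4T1 cells, a line from a mouse mammary carcinoma and a model of triple-negative breast cancer, had formed in the mammary fat pads of mice of the strain BALB/c. The mice ate a diet with 10 kcal% fat (LFD) or 60 kcal% fat (HFD) for 6 weeks before 500000 cells were injected, and kept that diet afterwards. LFD and HFD mice received vehicle, and HFD + EC359 mice received EC359, a small-molecule inhibitor of the leukemia inhibitory factor receptor (LIFR), at 5 mg/kg intraperitoneally on 5 days a week. There were 3 libraries in a group, 9 in all, labelled as replicates of a tumor. The labels do not say whether each came from its own mouse, and each library is called a tumor here. No group on LFD received EC359, so its effect on that diet was not measured, and 1 cell line limits the model to the tumors it forms. The comparisons ask what HFD and EC359 on HFD did to the level of these transcripts.

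Proteins of this family carry a run of leucine-rich repeats with which most bind collagen, and many carry chondroitin, dermatan or keratan sulfate chains. They help set the width and spacing of collagen fibrils. Several also bind growth factors of the TGF-β family or signal through receptors on tumor and immune cells. In tumors they are made mainly by fibroblasts and related stromal cells, so whole-tumor RNA mixes their cells with those of the tumor. In these bulk samples, fewer cells of a type and less RNA per cell cannot be told apart.

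HFD tumors held more of 6 of the 7 transcripts that could be tested than LFD tumors, where 26% of all tested genes passed the test as higher. In tumors of EC359-treated mice the 6 did not return to one common level. Bgn (biglycan) and Lum (lumican) were again near their LFD level with EC359, Prelp lay between, and Dcn (decorin) and Ogn (osteoglycin) stayed near their HFD level. Aspn, at low counts, varied between the HFD + EC359 tumors, and its difference from HFD missed the threshold. Podn (podocan) did not pass the test between HFD and LFD and fell with EC359. Fmod (fibromodulin) and Omd (osteomodulin) were too low to be tested.

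Several of the genes lie side by side. In mm9, the build of the files, Dcn occupies chr10:96942134-96980796 and Lum chr10:97028135-97035337, both on the plus strand with 47.3 kb between them and no other listed gene in between. A second row on the plus strand of chromosome 13 runs Ecm2, Aspn (chr13:49639812-49662931), Omd (chr13:49678116-49687978) and Ogn (chr13:49703440-49719869), with 15.2 kb between Aspn and Omd and 15.5 kb between Omd and Ogn. This row lies within Cenpp, a gene of the other strand, and the counting used strand. On chromosome 1, Prelp (chr1:135806882-135817978, minus strand) and Fmod (chr1:135934092-135944854, plus strand) lie 116.1 kb apart. Bgn (chrX:70728974-70741275, plus strand) and Podn (chr4:107687398-107704695, minus strand) have no family member next to them. No member overlaps a gene on its own strand. The transcripts differ in base composition, from 34.4% G and C in Aspn and 36.3% in Ogn through 42.0% in Lum and 43.4% in Dcn to 52.3% in Bgn, 53.7% in Fmod, 53.9% in Prelp and 57.1% in Podn.

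RefSeq promoters (GRCm38.p6) were matched by symbol for 7 of the 9 members, with 2 for Podn and none for Dcn and Lum. The 250 bases before the start are shown for Bgn, the most abundant member, for Prelp, and for the chromosome 13 neighbors Aspn and Ogn, to set starts rich and poor in G and C beside each other. Capitals mark motif matches on either strand.
Bgn (chrX:73483351-73483600, plus strand): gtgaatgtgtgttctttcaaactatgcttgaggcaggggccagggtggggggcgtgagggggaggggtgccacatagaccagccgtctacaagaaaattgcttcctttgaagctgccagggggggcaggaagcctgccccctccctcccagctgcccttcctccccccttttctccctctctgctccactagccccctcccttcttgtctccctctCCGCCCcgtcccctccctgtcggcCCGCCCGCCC
Prelp (chr1:133921402-133921651, minus strand): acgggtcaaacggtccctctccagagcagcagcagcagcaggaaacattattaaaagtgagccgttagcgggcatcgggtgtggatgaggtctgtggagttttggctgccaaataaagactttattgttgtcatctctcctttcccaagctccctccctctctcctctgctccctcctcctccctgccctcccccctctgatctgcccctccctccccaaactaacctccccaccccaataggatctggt
Aspn (chr13:49544193-49544442, plus strand): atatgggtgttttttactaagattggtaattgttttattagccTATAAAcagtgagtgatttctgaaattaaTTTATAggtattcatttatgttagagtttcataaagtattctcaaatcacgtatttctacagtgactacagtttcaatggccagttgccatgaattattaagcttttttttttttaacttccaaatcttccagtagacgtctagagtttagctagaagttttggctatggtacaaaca
Ogn (chr13:49607765-49608014, plus strand): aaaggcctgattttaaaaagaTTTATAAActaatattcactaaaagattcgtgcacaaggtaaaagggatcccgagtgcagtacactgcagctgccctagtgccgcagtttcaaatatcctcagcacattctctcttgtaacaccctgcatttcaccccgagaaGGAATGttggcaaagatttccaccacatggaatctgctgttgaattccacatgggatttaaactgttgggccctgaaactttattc
G and C made up 64.4% of the Bgn stretch, 55.6% of the Prelp stretch, 30.0% of the Aspn stretch and 42.0% of the Ogn stretch. The motifs searched were the TATA box TATAAA, the GC box GGGCGG, the AP-1 motif TGANTCA, the STAT motif TTCNNNGAA, the SMAD motif CAGACA and the TEAD motif GGAATG. Over the same 250 bases of all 32851 promoters, they were found in 12.4%, 32.7%, 6.75%, 7.02%, 17.1% and 12.6%. Bgn held 3 GC boxes, beginning 34, 10 and 6 bases before the start, of which the last 2 overlap each other. Aspn held 2 TATA boxes and Ogn 2 that overlap each other, all at least 178 bases before the start. Ogn also held the TEAD letters once, and Prelp held none of the 6 motifs. Of the promoters not shown, 1 of the 2 for Podn held 2 GC boxes, and those of Fmod and Omd held no match. No member's stretch contained the AP-1, STAT or SMAD letters. A match here is a description of letters and says nothing of binding.

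The libraries held 5085357 to 9751201 counts, and the factors that scale them ranged from 0.962 to 1.03. Levels are given as CPM, which is counts over the scaled library total. At these depths a count of 0 allows up to 3 counts, which is 0.300 to 0.613 CPM, for counting error only. Of the 22609 genes, 13366 passed a filter on low counts, among them 7 of the 9 members. Of the labelled cells, Krt8 and Krt18, keratins of the epithelial tumor cell, had group means of 292 to 599 CPM. Krt7, Krt19, Cldn3 and Cldn7 had at most 15 counts in any library. The libraries also differed in how much they held of transcripts with low G and C content. The mean log2 level of these transcripts minus that of G and C rich ones was -0.54, -0.32 and -0.37 in the LFD libraries, 0.11 to 0.16 in the HFD libraries and 0.25 to 0.30 in the HFD + EC359 libraries, with LFD replicate 1 farthest from the rest. Where removing this trend changed a call of a family gene, both values are given. Changes of size that left a call as it was are given only as the smallest values over the alternatives, at the end.

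Bgn, whose protein binds collagen and, once released from the matrix, Toll-like receptors of immune cells, was the most abundant member. It stood at 64.2, 75.7 and 69.0 CPM in the 3 LFD tumors, 174.8, 168.5 and 171.4 CPM in the HFD tumors and 70.0, 73.3 and 75.8 CPM in the HFD + EC359 tumors. All HFD tumors lay above all others, and the LFD and HFD + EC359 tumors overlapped. The fold change was 2.45 for HFD over LFD (log2 1.29 ± 0.06 SE, edgeR adjusted p = 3.88e-19), and with EC359 the level fell by 1.23 on the log2 scale (SE 0.05, edgeR adjusted p = 1.60e-19). Between HFD + EC359 and LFD the log2 difference was 0.06, with a 95% interval from -0.06 to 0.19 (edgeR adjusted p = 0.377).

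Dcn, whose protein coats collagen fibrils and binds TGF-β and several receptor tyrosine kinases, took another course. Its level was 21.7, 32.5 and 27.6 CPM in the LFD tumors, 71.7, 75.6 and 81.1 CPM in the HFD tumors and 66.2, 73.0 and 70.4 CPM in the HFD + EC359 tumors. The LFD tumors lay apart below the rest, and the other groups overlapped. HFD exceeded LFD by 2.75-fold (log2 1.46 ± 0.09 SE, edgeR adjusted p = 6.07e-15). The difference between HFD + EC359 and HFD was -0.12 on the log2 scale, with a 95% interval from -0.27 to 0.02 (edgeR adjusted p = 0.220). With the G and C trend removed this difference was -0.19 and passed the threshold (edgeR adjusted p = 0.0236). HFD + EC359 remained 2.53-fold above LFD (log2 1.34 ± 0.09 SE, edgeR adjusted p = 2.60e-14).

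Aspn, the member of the same class that carries no glycosaminoglycan chain, was low. The LFD tumors had 5, 7 and 7 counts (1.02, 1.10 and 1.23 CPM), the HFD tumors 27 counts each (3.40, 3.53 and 3.68 CPM) and the HFD + EC359 tumors 16, 11 and 35 counts (1.94, 1.24 and 3.495 CPM). Replicate 3 of HFD + EC359 lay among the HFD tumors and the other two below them. The log2 fold change was 1.64 ± 0.38 SE for HFD against LFD (edgeR adjusted p = 4.99e-04). For HFD + EC359 against HFD it was -0.63 ± 0.29 SE and missed the threshold (edgeR adjusted p = 0.105), whereas it was -1.16 (edgeR adjusted p = 0.00976) without HFD + EC359 replicate 3 and -0.84 (edgeR adjusted p = 0.0251) with the G and C trend removed. HFD + EC359 exceeded LFD by 1.01 ± 0.40 SE on the log2 scale (edgeR adjusted p = 0.0319). This call was lost without HFD + EC359 replicate 3 (0.48, edgeR adjusted p = 0.371), without any 1 of the LFD libraries (0.96 to 1.08, edgeR adjusted p = 0.0570 to 0.0811), with DESeq2 (adjusted p = 0.0697) and with the G and C trend removed (0.22, edgeR adjusted p = 0.687).

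Lum, a keratan sulfate proteoglycan of collagen fibrils and the neighbor of Dcn, followed the course of Bgn. It stood at 7.36, 5.65 and 5.81 CPM in the LFD tumors, 14.5, 11.4 and 12.7 CPM in the HFD tumors and 5.45, 5.41 and 7.19 CPM in the HFD + EC359 tumors. Again the HFD tumors lay above all others, while LFD and HFD + EC359 tumors overlapped. Lum rose 2.07-fold with HFD (log2 1.05 ± 0.17 SE, edgeR adjusted p = 5.75e-06) and fell by 1.08 on the log2 scale with EC359 (SE 0.16, edgeR adjusted p = 1.74e-06). Its log2 difference between HFD + EC359 and LFD was -0.03, with a 95% interval from -0.43 to 0.36.

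Prelp, whose protein binds collagen together with heparan sulfate chains of basement membranes, had 6.74, 4.86 and 7.57 CPM in the LFD tumors, 12.6, 13.7 and 13.2 CPM in the HFD tumors and 8.36, 9.36 and 9.59 CPM in the HFD + EC359 tumors. The 3 groups did not overlap, with HFD + EC359 in the middle. HFD exceeded LFD by 2.08-fold (log2 1.06 ± 0.17 SE, edgeR adjusted p = 2.47e-06), and EC359 was associated with a fall by 0.53 on the log2 scale (SE 0.14, edgeR adjusted p = 0.00377). HFD + EC359 remained 1.44-fold above LFD (log2 0.53 ± 0.17 SE, edgeR adjusted p = 0.00910). That last call was lost without LFD replicate 2, the lowest tumor (0.34, edgeR adjusted p = 0.131).

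Fmod, which binds collagen in competition with lumican, had 4, 1 and 1 counts in the LFD tumors, 4, 8 and 7 in the HFD tumors and 4, 3 and 3 in the HFD + EC359 tumors. Its ratio of summed CPM was 2.34 for HFD over LFD, with an exact 95% counting interval from 0.899 to 7.16. For HFD + EC359 over HFD it was 0.445, with an interval from 0.185 to 1.005. Differences of Fmod were therefore not detectable at this depth. Omd, a bone proteoglycan, had 1 count in each of 2 HFD + EC359 tumors and 0 counts in the other libraries, so it was below the limit everywhere.

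Ogn, a proteoglycan first known from bone and also found in many connective tissues, was the lowest member that could be tested. It had 2, 4 and 1 counts in the LFD tumors (0.409, 0.627 and 0.176 CPM), 11, 14 and 18 counts in the HFD tumors (1.39, 1.83 and 2.45 CPM) and 10, 22 and 20 counts in the HFD + EC359 tumors (1.21, 2.48 and 2.0 CPM). The LFD tumors lay below all others, and the other groups overlapped. The ratio of HFD over LFD was 4.54, with an exact 95% counting interval from 2.03 to 11.97, and the fitted log2 fold change was 2.14 ± 0.54 SE (edgeR adjusted p = 0.00119). For HFD + EC359 over HFD the ratio was 1.02, with a counting interval from 0.669 to 1.57, and the log2 difference was 0.03, with a 95% interval from -0.65 to 0.71 (edgeR adjusted p = 0.964). A decrease of the size seen for Bgn lies outside both intervals. HFD + EC359 against LFD gave a log2 fold change of 2.17 ± 0.52 SE (edgeR adjusted p = 6.44e-04).

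Podn, which binds collagen and is expressed by mesenchymal cells, was the tested member with the smallest HFD change. It had 5.11, 7.37 and 6.51 CPM in the LFD tumors, 6.42, 8.90 and 7.49 CPM in the HFD tumors and 3.64, 5.19 and 3.80 CPM in the HFD + EC359 tumors. HFD and LFD tumors overlapped, and all HFD + EC359 tumors lay below the HFD tumors. The log2 difference for HFD against LFD was 0.24, with a 95% interval from -0.16 to 0.65 (edgeR adjusted p = 0.314). Podn fell by 0.85 on the log2 scale with EC359 (SE 0.19, edgeR adjusted p = 0.00113). It was also lower in HFD + EC359 than in LFD (log2 -0.61 ± 0.22 SE, edgeR adjusted p = 0.0159), although the tumors of these groups overlapped. This last call was lost without LFD replicate 2 (-0.49) and without replicate 1 (-0.52) or replicate 3 (-0.54) of HFD + EC359, with counts thinned to the smallest library (-0.52) and with the G and C trend removed (-0.37), at edgeR adjusted p = 0.0579 to 0.163.

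**Figure D1:**
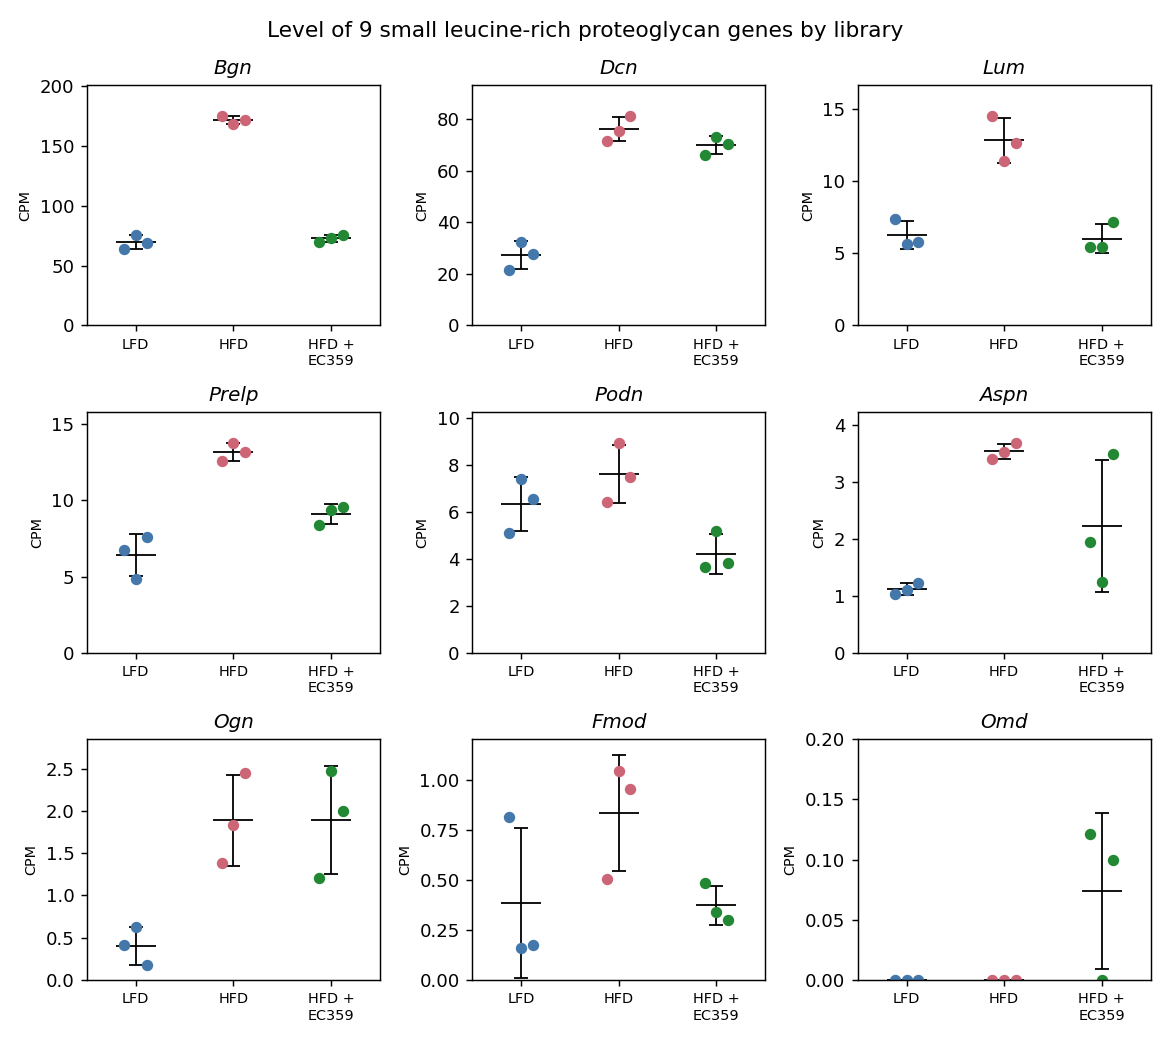
Level of the 9 genes in each library, in CPM on linear axes that start at 0 and differ between genes. Points are the 3 libraries of a group, the long bar is their mean and the whiskers are 1 SD. Bgn and Lum are high in the HFD tumors alone, Dcn and Ogn are high in both HFD groups, and Fmod and Omd rest on 0 to 8 counts a library.

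Counted together, 6 members rose and 0 fell with HFD out of the 7 tested. Of all tested genes, 51.8% passed the test (26% as higher and 25.8% as lower). Ogn and Aspn, with at most 7 counts in any LFD tumor, passed the filter through the groups on HFD, where they were high. With at least 10 counts in every library, 5 members were tested, of which 4 rose and 0 fell. Under that filter 6358 of 11980 genes were called, 3196 of them as higher. In the main fit, the 6 members that rose also passed the threshold in the methods of the study. That threshold asks for more than a 2-fold change at an adjusted p below 0.01, and 5.71% of all tested genes passed it. Under at least 1 alternative each, the rise of Lum and Prelp was less than 2-fold (log2 as low as 0.76 and 0.87). A legend of the study instead asks for a log2 fold change of at least 2, under which Ogn alone passed in this comparison (1.94% of all tested genes) and against LFD with EC359 (0.411%), and 0 members passed by edgeR between HFD + EC359 and HFD (1.26%). Their libraries did not overlap between the groups, which held for 57.1% of all tested genes. Between HFD + EC359 and HFD, 4 members fell (Bgn, Lum, Prelp and Podn) and 0 rose, against 26.6% of all tested genes called, 12.7% as higher and 13.9% as lower. Bgn and Lum passed the 2-fold threshold there, against 3.43% of all tested genes, and the groups did not overlap for the 4 members, against 41.3% of all tested genes. Between HFD + EC359 and LFD, 4 members were higher (Dcn, Ogn, Aspn and Prelp) and Podn was lower, against 58.3% of all tested genes called, 29.2% as higher and 29.1% as lower. Dcn and Ogn passed the 2-fold threshold there, against 5.09% of all tested genes. The groups did not overlap for 4 members, against 62.9% of all tested genes. Against LFD, the share of members called in HFD + EC359 tumors was thus near the background, and the number of calls there is not a result about the members. Both comparisons with HFD share its 3 libraries, so a low or high HFD library would move both in opposite directions. Median log2 fold changes over the 7 members that passed the filter were 1.29, -0.63 and 0.53, beside 0.00711, 0.00563 and 0.0108 over all tested genes. These medians leave out Fmod and Omd, which did not pass the filter, and include Ogn and Aspn, which passed it through the groups on HFD.

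**Figure D2:**
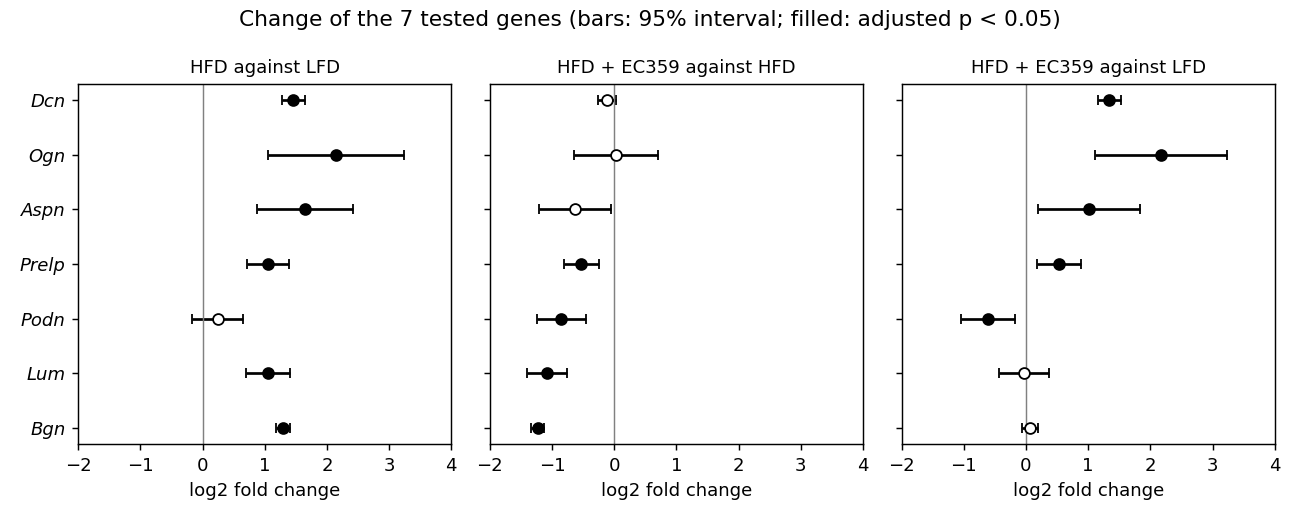
Log2 fold change of the 7 tested members in the 3 comparisons, on a shared linear axis, with 95% intervals as bars and filled points for an edgeR adjusted p under 0.05. The order from Dcn to Bgn on the vertical axis is the same in each panel. In the middle panel Dcn and Ogn lie at -0.12 and 0.03, while Lum and Bgn lie at -1.08 and -1.23.

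To compare levels between genes, CPM was divided by the counted transcript length in kilobases. In HFD tumors the order ran Bgn (71.8 ± 1.32 CPM per kb, SD, n = 3), Dcn (36.5 ± 2.28), Lum (6.19 ± 0.751), Prelp (3.66 ± 0.159), Podn (2.40 ± 0.392), Aspn (1.504 ± 0.0585), Ogn (0.744 ± 0.211) and Fmod (0.292 ± 0.101), with Omd at 0. In LFD tumors Bgn (29.1 ± 2.43) and Dcn (13.1 ± 2.60) led as well, and Podn (2.0 ± 0.360) and Prelp (1.77 ± 0.386) did not differ beyond their spread. In HFD + EC359 tumors Dcn (33.5 ± 1.67) came before Bgn (30.6 ± 1.21), and Lum (2.90 ± 0.490) and Prelp (2.53 ± 0.181) did not differ beyond their spread.

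The sum over the 9 members was 45.2, 54.4 and 49.8 CPM per kb in the LFD tumors, 122.2, 121.5 and 125.7 in the HFD tumors and 68.7, 74.2 and 75.3 in the HFD + EC359 tumors. The 3 groups did not overlap. Bgn made up 58.6 ± 0.772% of this sum in LFD tumors, 58.3 ± 1.41% in HFD tumors and 42.1 ± 0.670% in HFD + EC359 tumors (SD, n = 3). Dcn made up 26.1 ± 2.84%, 29.7 ± 1.43% and 46.1 ± 1.19%. The rise with HFD thus left the shares of the leading pair nearly as they were, whereas with EC359 the sum fell and Dcn took the larger share. On the level of CPM, the log2 ratio of Dcn over Bgn was -1.55, -1.22 and -1.31 in LFD tumors, -1.28, -1.15 and -1.08 in HFD tumors and -0.08, -0.00443 and -0.11 in HFD + EC359 tumors. All HFD + EC359 values lay above all others. The difference between HFD + EC359 and HFD was 1.11 (exact two-sided permutation p = 0.1, the smallest that 3 against 3 allows, adjusted p = 0.2 over 18 such ratios and comparisons). The ratios of Dcn over Lum, Prelp and Podn also rose without overlap, by 0.94, 0.40 and 0.70 on the log2 scale, at the same exact permutation p = 0.1. Those of Dcn over Ogn and over Aspn overlapped between the groups, with differences of -0.11 (exact permutation p = 0.8) and 0.59 (exact permutation p = 0.4).

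**Figure D3:**
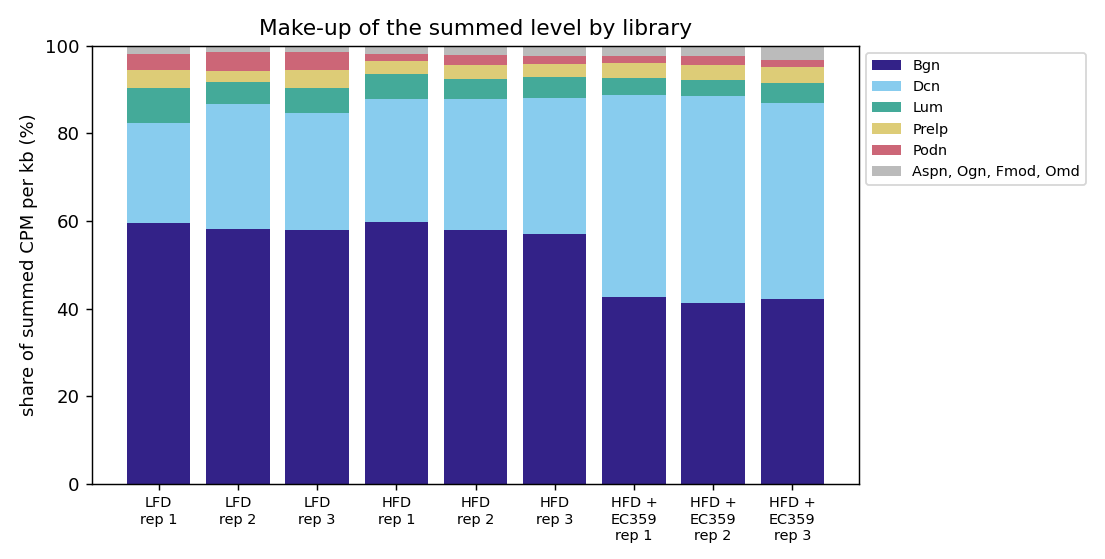
Share of each member in the summed CPM per kb of the 9 genes, in percent, for each of the 9 libraries. Bgn takes 57.1 to 59.9% in the HFD libraries and 41.3 to 42.7% in the HFD + EC359 libraries, where Dcn takes 44.9 to 47.2%.

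The other 9 genes of the family listed were mostly near 0. Epyc had no counts in any library, Kera, Chad, Nyx, Optc and Chadl at most 4, and Ecm2, beside Aspn, at most 14. The remaining pair, Podnl1 and Tsku, passed the filter. Podnl1, the closest relative of Podn, had 21.5 ± 1.68 CPM in LFD, 15.1 ± 1.76 in HFD and 11.2 ± 1.40 in HFD + EC359 tumors (SD, n = 3). It fell by 0.50 on the log2 scale with HFD (SE 0.12, edgeR adjusted p = 9.54e-04) and by 0.44 with EC359 (SE 0.13, edgeR adjusted p = 0.00899). The first call was lost with the G and C trend removed (-0.25, edgeR adjusted p = 0.0929), and the second without replicate 2 of HFD (-0.34) or of HFD + EC359 (-0.35). Tsku, a secreted regulator of developmental signals, had log2 differences of 0.03 (95% interval from -0.13 to 0.18) with HFD and -0.05 (95% interval from -0.20 to 0.09) with EC359. With the G and C trend removed the first was 0.18 (edgeR adjusted p = 0.0432).

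Counts in the lists that follow stand beside 51.8% of all tested genes called with HFD and 26.6% with EC359. Between HFD + EC359 and LFD the share was 58.3%. Counts near these shares are not a result about a list. Fibrillar collagens are the main partners of these proteoglycans in the matrix. With HFD, 6 of the 10 tested rose and 0 fell (median log2 0.439), and with EC359 0 rose and 9 fell (median -1.28). Unlike Bgn and Lum, the collagens then lay below LFD, where 0 were higher and 9 lower (median -0.987). The 3 most abundant, Col1a1, Col1a2 and Col3a1, which encode the chains of collagens I and III, fell by 2.09, 2.06 and 1.98 on the log2 scale with EC359, after rises of 0.71, 0.77 and 0.98 with HFD. The collagen sum stood at 1692 to 2044 CPM per kb in LFD tumors, 2820 to 2991 in HFD tumors and 778 to 808.4 in HFD + EC359 tumors.

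Enzymes that build and sulfate the glycosaminoglycan chains changed in both directions. Of 24 tested, 5 rose and 10 fell with HFD, and 0 rose and 6 fell with EC359, with medians of 0.0444 and -0.0824. Chpf, Chpf2 and Chsy1, which extend chondroitin chains, were the most abundant. Chpf and Chpf2 fell in both comparisons, while Chsy1 rose with HFD and its change with EC359 missed the threshold. Of 18 other proteoglycans, 7 rose and 8 fell with HFD, and 1 rose and 8 fell with EC359. The most abundant of them, Hspg2 (perlecan), Col18a1 and Sdc4, fell with HFD.

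Receptors and ligands known to bind the family were divided too. Of 13 tested, 5 rose and 3 fell with HFD, 4 rose and 3 fell with EC359, and 9 were higher and 4 lower in HFD + EC359 than in LFD. Igf1r, Lrp1 and Tgfb1 were the most abundant. The ligand Tgfb1 fell with HFD (log2 -0.15), as did the growth factor receptor Igf1r. The less abundant ligands Tgfb2 and Tgfb3 rose with HFD (0.98 and 0.23). A further list held proteases that cut these proteoglycans or trim their propeptides, and Pcolce, an enhancer of Bmp1 that is not itself a protease. Of its 12 tested genes, 3 rose and 4 fell with HFD, and 2 rose and 6 fell with EC359. Bmp1 and Pcolce, the most abundant of these along with Mmp14, fell in both comparisons.

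**Figure D4:**
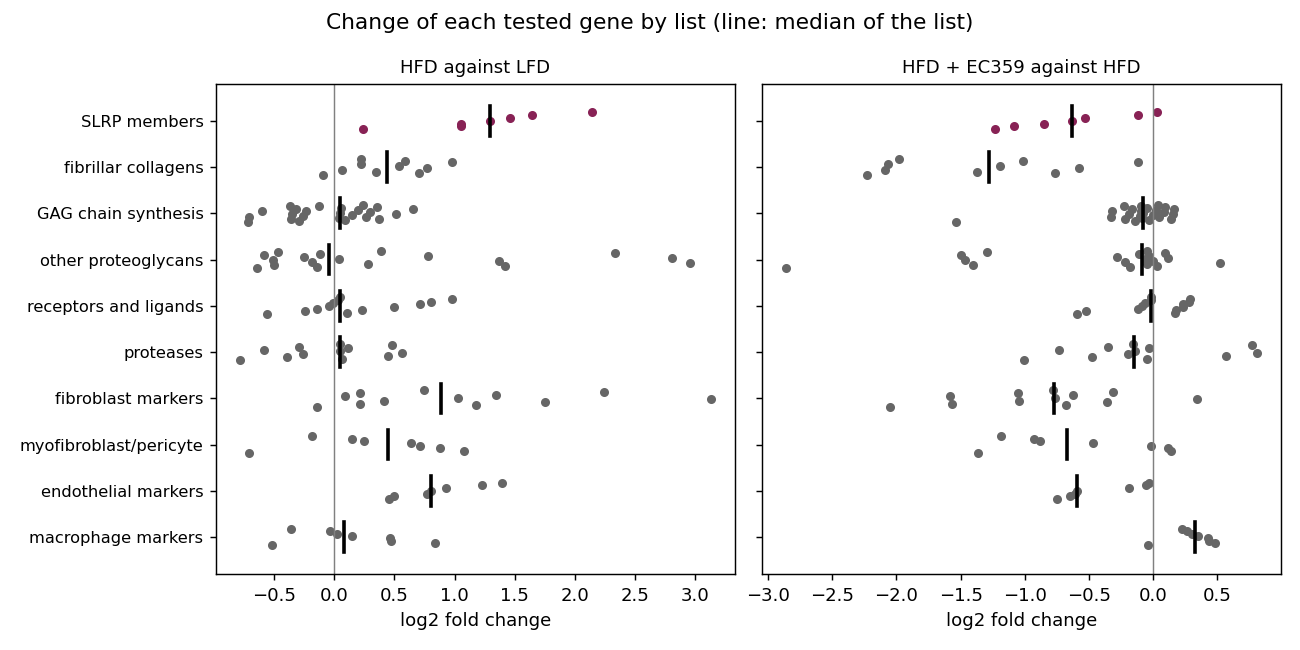
Log2 fold change of every tested gene in the members' list and in 9 other lists, for HFD against LFD on the left and HFD + EC359 against HFD on the right, each on its own linear axis. A point is a gene, spread vertically for legibility, and a black line is the median of the list. The members' median is 1.29 on the left and -0.63 on the right, and that of the fibrillar collagens is 0.439 and -1.28.

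Markers of fibroblasts, which make these proteins, changed with HFD and with EC359. Of 12 fibroblast markers, 11 rose and 0 fell with HFD (median log2 0.886), and 1 rose and 9 fell with EC359 (median -0.776). The one that rose with EC359 was Pdgfra, a receptor of fibroblasts, by 0.34 on the log2 scale (SE 0.03, edgeR adjusted p = 1.43e-09). Col6a3 and Thy1 were the other most abundant, and their rises with HFD were small (0.09 and 0.21). That of Col6a3 was lost in 7 of 18 alternatives, DESeq2 and thinning among them, and that of Thy1 without LFD replicate 1 (0.13). The list summed to 164.9 to 175.6 CPM per kb in LFD tumors, 233.9 to 236.7 in HFD tumors and 163.2 to 168.3 in HFD + EC359 tumors, and none of its genes was at 0 in all libraries. Of 8 myofibroblast and pericyte markers, led by Acta2, Des and Pdgfrb, 6 rose and 1 fell with HFD, and 0 rose and 5 fell with EC359. The sums were 125.2 to 126.3, 154.7 to 163.1 and 117.9 to 121.4 CPM per kb. Between HFD + EC359 and LFD, the fibroblast sums overlapped, and 58.3% of all tested genes were called. There 6 of the 12 fibroblast markers were not called (median log2 0.157), so the count is not a result about that list. The 3 higher ones were Pdgfra, Fap and Clec3b (by 0.56, 0.72 and 1.55 on the log2 scale). The 3 lower ones included the abundant Col6a3 and Thy1 (-0.68 and -0.57). Of the myofibroblast and pericyte markers, 2 were higher (Pdgfrb and Rgs5, by 0.23 and 0.61). The 4 lower ones included the abundant Acta2 and Des (-0.31 and -0.57). Of 7 endothelial markers, led by Cdh5, Egfl7 and Pecam1, 7 rose with HFD and 5 fell with EC359, with sums of 87.8 to 90.7, 145.6 to 155.2 and 112.9 to 122.8 CPM per kb.

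Markers of other tissues that a fat pad tumor can hold were counted too. Of all tested genes, 51.8% were called with HFD and 26.6% with EC359, and counts near these shares are not a result about a tissue. Of 5 tested epithelial markers, led by Krt8, Krt18 and Cdh1, 5 fell with HFD and 4 rose with EC359. The log2 fold changes were -2.27 and 1.75 for Cdh1 and -0.55 and 0.12 for the more abundant Krt8. For Krt18, also more abundant, they were -0.73 and 0.06, the last short of the threshold. The sums were 687.1 to 700.6 CPM per kb in LFD, 437.2 to 442.4 in HFD and 465.8 to 484.9 in HFD + EC359 tumors. Of 8 epidermis markers, led by Krt5, Krt10 and Krt14, 6 fell with HFD and 7 rose with EC359, with sums of 610.4 to 708.1, 87.1 to 92.2 and 275.7 to 279.6. Of 7 tested adipocyte markers, led by Cfd, Fabp4 and Lipe, 2 rose and 1 fell with HFD, and 1 rose and 0 fell with EC359. Their sums were 20.6 to 25.9 CPM per kb in LFD, 46.3 to 49.7 in HFD and 46.2 to 51.8 in HFD + EC359 tumors. Fabp4 had means of 6.20, 20.0 and 19.4 CPM, while Plin4 fell with HFD. Adipoq, a defining gene of fat cells, had 1 to 6 counts a library. Of 8 skeletal muscle markers, led by Acta1, Myh4 and Tnnt3, 3 rose and 2 fell with HFD, and 2 rose and 3 fell with EC359, with sums of 51.4 to 59.8, 57.0 to 64.7 and 49.7 to 51.5. Of 8 macrophage markers, led by C1qa, C1qb and Lyz2, 4 rose and 2 fell with HFD, and 7 rose and 0 fell with EC359, with sums of 979.9 to 994.6, 1200 to 1216 and 1497 to 1505. Cartilage, bone and tendon markers had 3 tested genes, Runx2, Scx and Sox9, of which 2 fell with HFD and whose log2 differences with EC359 were 0.03, -0.25 and 0.11, short of the threshold. Their defining genes Acan and Tnmd had at most 1 count and Sp7 had none. The part of these cell types in the members' changes was not tested.

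Genes with the most similar course were picked by the root mean square difference of centred log2 CPM over the 9 libraries, among 9975 tested genes of at least 10 CPM. For Bgn these were Aplnr (0.0994), Sfrp2 (0.110) and Fstl1 (0.118), and for Lum Rarres2 (0.135), Lgr6 (0.155) and Creb3l1 (0.165). All 6 have a log2 fold change between 0.94 and 1.41 with HFD and between -1.42 and -1.04 with EC359, which follows from how they were picked. For Dcn they were Ap3s1 (0.130), Lcn2 (0.133) and Hist1h2bp (0.134), whose EC359 differences were 0.03, 0.13 and -0.09. Prelp was nearest to Acvrl1 (0.141), Mmrn2 (0.143) and Lama4 (0.148), and Podn to Thy1 (0.160), Aldh1l2 (0.167) and Mt1 (0.196). The low members had more distant neighbors, which were Hist1h2bn (0.302), Ms4a6b (0.315) and Fabp4 (0.355) for Ogn and Plscr2 (0.319), Fndc1 (0.320) and C4b (0.320) for Aspn.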

How the data were processed

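RNA-seq was available as 9 libraries, 3 per group, each labelled with a group and a replicate number and with no batch. The authors deposited tables of expected counts, in which read pairs had been assigned to genes per the file headers by featureCounts 1.5.0-p1 on mm9 with reverse strand, a minimum mapping quality of 2, and fractions for pairs that matched several genes or positions. The submitters' processing notes also name bcl2fastq and HISAT2 2.1.0, whereas the methods of the study name TopHat2 and HTSeq.

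Counts were rounded to whole numbers (1.19 to 3.55% of genes in a library held fractions). Genes were filtered with filterByExpr by group in edgeR 4.0.16 (R 4.3.3), scaled with TMM factors, and tested in 1 quasi-likelihood model of all 9 libraries, adjusted by the method of Benjamini and Hochberg over all 13366 tested genes, with a threshold of 0.05 on the adjusted p. P-values measure the spread between libraries of the same group, pooled over the 3 groups and moderated with information from the other genes. The labels do not say whether the 3 libraries of a group are separate tumors. The mean chi-square per gene between 2 libraries of a group was 1.36 to 1.57. It was 2.46 and 3.00 for the pairs with LFD replicate 1. Whether the spread is that between tumors was not tested. Alternatives were DESeq2 1.42.0, RLE factors, library totals, other filters, the 6 libraries of a comparison alone, a replicate block, removal of the trend of each library with G and C content (from the mm9 genome, over 100% of tested genes), thinning to the smallest total, each library left out, and the threshold of the study (fold over 2, adjusted p under 0.01). The steps were tested on simulated data.

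The members and the gene lists were chosen with earlier results of these data known. Named were all family members, the 3 tested genes of each list with the highest CPM per kb, and the 3 genes nearest to each tested member. Adipoq, Plin4, Fap, Clec3b, Rgs5, Tgfb2, Tgfb3 and the list genes named for counts near 0 were chosen after their values were seen.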

Additional observations from a re-analysis of the deposited data

How the results depend on the processing

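The 21 member results (7 genes in 3 comparisons) were recomputed under up to 18 alternatives each, 369 values in all, of which 345 kept their direction and side of the threshold, 12 lost a call, 3 gained one and 9 changed sign. The members' changes of sign were in differences that passed the threshold under no alternative. Ogn for HFD + EC359 against HFD was -0.14 with the G and C trend removed, -0.031 thinned, and -0.20 to 0.25 with each library left out. Lum for HFD + EC359 against LFD was 0.043 with library totals and -0.20 to 0.084 with each library left out. Its lowest value over all alternatives was -0.40, short of the threshold. Tsku for HFD + EC359 against LFD was 0.048 with library totals and 0.17 with the G and C trend removed, and for HFD against LFD -0.026 to 0.087 with each library left out. With the threshold kept, the number of members called was 4 to 6 for HFD against LFD, 4 to 6 for HFD + EC359 against HFD and 2 to 5 for HFD + EC359 against LFD. For the last it was 3 with at least 10 counts in every library, 3 with the 6 libraries alone, which test fewer genes, 3 with the G and C trend removed, and 2 to 5 with each library left out (2 without LFD replicate 2, 3 without HFD + EC359 replicate 3). With the 2-fold threshold of the study, 763, 459 and 680 genes were called in the 3 comparisons, in place of 6925, 3549 and 7787, and 2 members in each of the comparisons of HFD + EC359. With a log2 fold change of at least 2 in its place, chosen after seeing the data, 259, 168 and 55 genes and 1, 0 and 1 members were called. Where the G and C trend changed a call, the cause was not tested. The calls of the 6 members with HFD were kept in each alternative that tested them. Their smallest log2 rise was 1.225 for Dcn, 1.24 for Bgn, 0.76 for Lum, 1.64 for Ogn, 1.06 for Aspn and 0.87 for Prelp. With each library left out, it was at least 0.95 for Lum, 1.79 for Ogn and 1.59 for Aspn. Dcn for HFD + EC359 against LFD was at least 1.03.

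Same-numbered libraries did not deviate together (correlations of deviations from -0.0297 to 0.017), so the numbers were not taken to pair the tumors. With the replicate block, 6944, 3550 and 7773 genes and 6, 4 and 5 members were called. Depth limits Fmod, Omd, Ogn and Aspn most, at 0 to 35 counts a library.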
